A study of Mus musculus with 15 samples.

Results

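The genes described here were high in the middle of the age series and lower at both ends. They are 33 of the 18193 genes that had a probe set of their own on the array. A gene was a member if its mean log2 value at postnatal day (P) 15 was over 7 and at least 1 above both the P7 and the P40 mean, and if each of the 3 P15 arrays lay above every P7 and P40 array. Of 36 genes that met these numbers, 3 (Kcnc4, Pcdh11x and Rps4l) belong to gene families that the choice left out by name. The P7, P15 and P40 values thus chose the members, so those values are given as a description with no test. The difference between the P25 and P10 means is the only contrast tested. All 15 arrays entered the choice of each gene's probe set and the estimate of the spread behind its SE and p, so these still draw on the arrays of the rule.

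The arrays hold RNA of GFP-labelled neurons from the primary somatosensory cortex (S1) of G42 mice, a line in which the Gad1 promoter drives GFP mainly in parvalbumin-class, fast-spiking interneurons. All 5 groups carried this transgene, received no other treatment named in the labels, and differed in age: P7, P10, P15, P25 and P40, the last covering days 40 to 45, with 3 mice and 3 arrays each. Fluorescent cells were picked by hand from protease-treated slices, 23 to 85 per array, and their RNA was amplified in 2 rounds. Log2 values of 5 or less are treated as background below, and 9663 genes, all 33 members among them, exceeded 5 on at least 3 of the 15 arrays.

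These cells fire at high rates and carry many mitochondria. As background, the brain of a suckling rodent burns ketone bodies and fatty acid products of milk beside glucose, and the enzymes that do so sit in the mitochondrial matrix. After weaning, glucose takes over. The weeks covered here also hold eye opening, the onset of whisking and the maturation of inhibitory synapses in this cortex.

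The cells were read against 9 genes listed as markers of parvalbumin interneurons, as a description. Of these, 7 (Gad1, Gad2, Slc32a1, Kcnc1, Lhx6, Tac1 and Sox6) averaged over 10 at every age, and Erbb4 was under 5 at every age. A high Gad1 was set by the picking, since its promoter drives the GFP. Whether the list tells this class from other interneurons was not tested. Pvalb, the calcium-binding protein that names the class, read 3.23, 3.19 and 4.45 on the P7 arrays, 9.37, 9.36 and 9.73 at P10, 13.20, 13.06 and 13.10 at P15, and between 13.98 and 14.42 on the 6 older arrays. It was at background on every P7 array and climbed from age to age without coming down, unlike the 33 genes. Some markers of other interneuron classes were also high, at P15 and at other ages. At P7, P15 and P25, Sst averaged 11.53, 11.65 and 11.96, Npy 10.92, 12.71 and 12.43, and Cck 8.41, 12.29 and 11.19. At P40, Npy averaged 12.27 and Cck 11.96. Sst averaged 8.34 at P40 with an SD of 5.76, so the 3 arrays of that age differed widely in it. Reln went down from 12.04 at P7 to 9.35 at P40, and Vip was at 2.67 at P15.

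P15 replicates 2 and 3 stood apart from the other 13 arrays before any gene was considered. The 18 probe sets for the bacterial transcripts spiked in at hybridization averaged 2.51 and 2.47 there, against at least 9.88 on every other array, P15 replicate 1 included at 10.79. The fewest cells were picked at P15, 23 to 45 per array. The 3′ minus 5′ difference of the beta-actin control probe sets, which grows as RNA is shortened, was 5.97 on P15 replicate 1. It was 3.99 and 3.54 on P15 replicates 2 and 3. At the other ages it ran from 4.64 to 6.41 at P7, from 5.34 to 6.09 at P10, from 4.70 to 6.04 at P25 and from 3.40 to 4.50 at P40. The part of these differences in the P15 levels was not tested. The rule required P15 replicate 1, too, to lie above all P7 and P40 arrays, so its values, given next, are a description. The members' median on that array was 8.61, against 8.75 and 8.81 on the other P15 arrays and at most 8.12 on any array of another age. On replicate 1 alone, 25 of the 33 genes lay at least 1 above both the P7 and the P40 mean, and 31 did so by the mean of replicates 2 and 3. Replicate 1 was the lowest of the 3 P15 arrays in 17 members and the highest in 8. With replicate 1 as the only P15 array, 23 of the 33 met the whole rule, and Asb1, Bdh1, Cdo1, Ciapin1, Dbt, Lgals1, Nars2, Scmh1, Smpdl3a and Sult2b1 did not. The test of P25 against P10 called the same 5 members with replicates 2 and 3 left out of the fit. P15 arrays enter that fit only through the estimate of the spread. The result thus says nothing about the P15 levels or the membership.

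Over the 33 genes, the median of the means was 8.69 at P15, after 6.48 at P7 and 7.21 at P10, and before 7.82 at P25 and 7.09 at P40. The peak of a gene, its P15 mean minus the higher of its P7 and P40 means, ran from 1.01 to 2.79 with a median of 1.46. The P40 mean lay above the P7 mean in 25 members and below it in 8, counted by sign alone. The median of P40 minus P7 was 0.54 over the members and 0.18 over all tested genes. Some of these differences were small beside the spread, as in Cps1 at 0.05 with an SD of 2.38 at P7. Both ages chose the members, so this was not tested. P15 means were over 10 in 9 members and under 8 in 10.

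**Figure D1:**
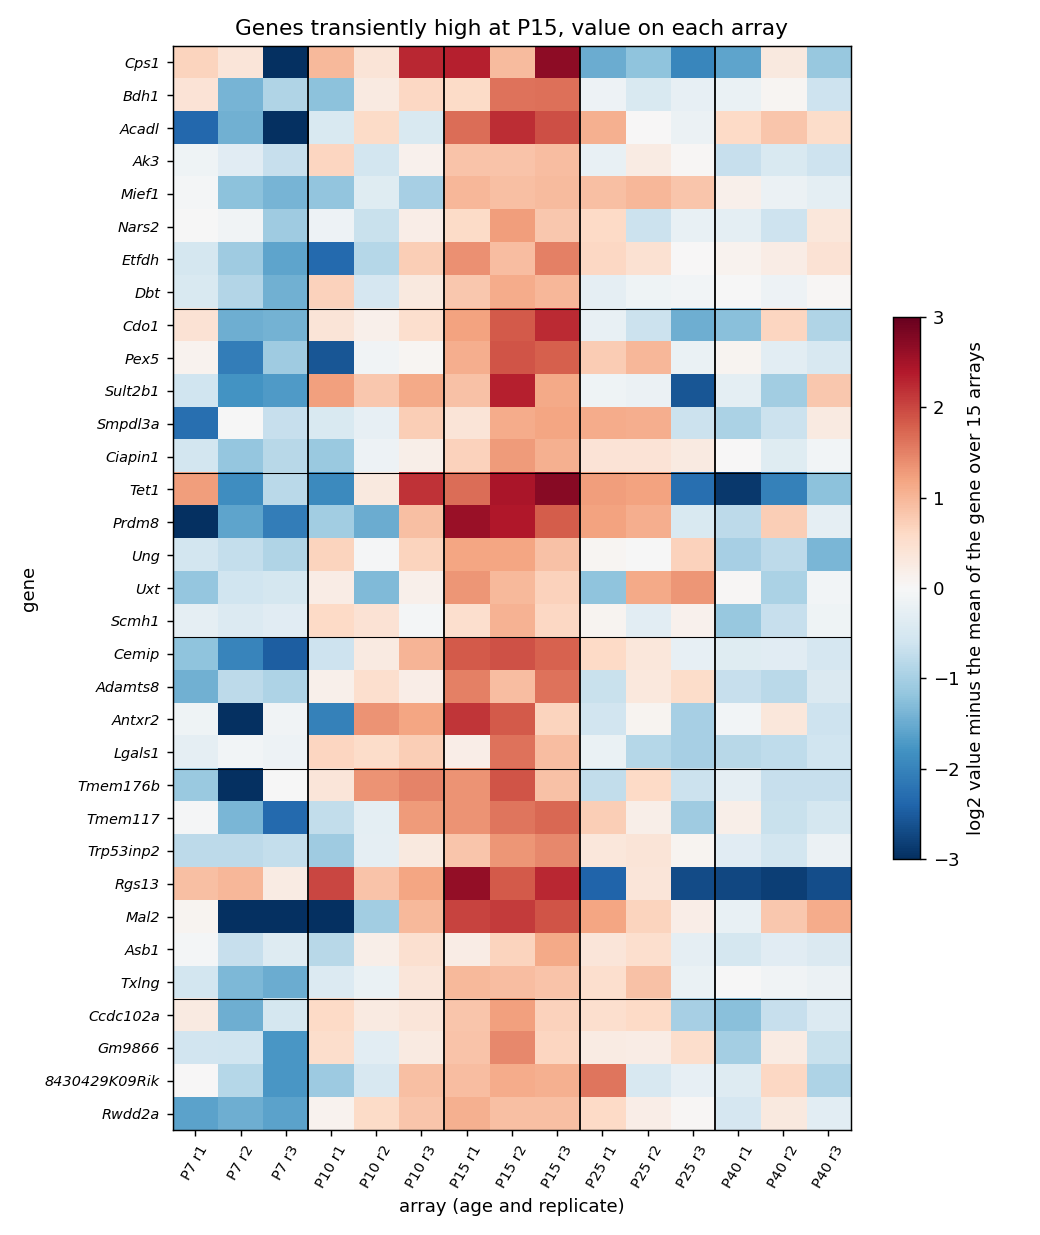
Log2 value of each of the 33 genes (rows) on each of the 15 arrays (columns, by age), shown as the difference from the gene's mean over all arrays; rows are grouped by role, and differences beyond 3 take the end colour of the scale. The P15 columns are high throughout, since the rule required it, while P10 and P25 differ from gene to gene.

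8 members work in mitochondria. Acadl, the long-chain acyl-CoA dehydrogenase of fatty acid β-oxidation, read 9.98, 10.52 and 10.24 at P15, after 5.95, 6.85 and 3.70 at P7 and 7.85, 8.86 and 7.85 at P10, and before 9.36, 8.31 and 8.12 at P25 and 8.89, 9.13 and 8.84 at P40. It had the widest distance from P7 to P15 of all members, 4.74, and kept most of it at P40. Etfdh, the oxidoreductase that passes electrons from acyl-CoA dehydrogenases to ubiquinone, read 8.64, 8.21 and 8.79 at P15, after 6.75, 6.21 and 5.70 at P7 and 4.95, 6.42 and 8.01 at P10, and before 7.89, 7.74 and 7.29 at P25 and 7.39, 7.50 and 7.71 at P40. Its P15 arrays lay above every array of the other ages, and its P10 arrays spread over more than the whole step from P7 to P15.

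Bdh1, the β-hydroxybutyrate dehydrogenase that opens the use of ketone bodies, read 9.98, 11.02 and 11.05 at P15, after 9.80, 8.01 and 8.49 at P7 and 8.17, 9.67 and 10.02 at P10, and before 9.24, 8.94 and 9.15 at P25 and 9.20, 9.47 and 8.79 at P40. Its P25 mean, 9.11 ± 0.15 (SD, n = 3), was already at the P40 mean of 9.15 ± 0.34. Its lowest P15 array, replicate 1, lay below 1 P10 array. Dbt, the core subunit of the branched-chain α-keto acid dehydrogenase, had the smallest peak of the 33, 1.01. It averaged 9.62 ± 0.15 at P15, after 7.72 ± 0.49 at P7 and 8.80 ± 0.61 at P10, and before 8.48 ± 0.11 at P25 and 8.60 ± 0.10 at P40.

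Cps1, the carbamoyl phosphate synthetase known from the urea cycle of liver, had the largest peak, 2.79, and the widest spread of the members between P15 arrays, 0.92 (SD, n = 3). It read 8.15, 6.77 and 8.52 at P15, after 6.49, 6.20 and 2.24 at P7 and 6.81, 6.22 and 8.08 at P10, and before 4.35, 4.63 and 3.87 at P25 and 4.25, 6.12 and 4.70 at P40. All P25 arrays were under 5, so the gene was above background on every P15 array and on none at P25. Ak3, a matrix adenylate kinase, averaged 8.76 ± 0.04 at P15, against 7.49 ± 0.28 at P7 and 7.29 ± 0.13 at P40. Nars2, the mitochondrial asparaginyl-tRNA synthetase, averaged 7.84 ± 0.35 at P15, against 6.57 ± 0.58 and 6.78 ± 0.49. Mief1, an outer-membrane adaptor that recruits the GTPase of mitochondrial fission, read 7.23, 7.14 and 7.20 at P15, after 6.18, 5.01 and 4.85 at P7 and 5.05, 5.89 and 5.24 at P10, and before 7.15, 7.24 and 7.08 at P25 and 6.39, 6.07 and 5.94 at P40. Its P25 arrays overlapped its P15 arrays, and the difference between these means, 0.03, was the smallest of the members.

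The promoters of 2 of these genes are shown as examples of windows that hold long GC-rich motifs common among genes of mitochondria and general cell function; Ak3, not shown, also holds CCGGAAGT. The window is 250 bases before to 50 after the gene's start in RefSeq on GRCm38.p6, at chr3:79628718-79629017 (minus strand) for Etfdh and chr15:80233830-80234129 (plus strand) for Mief1. Capitals mark the palindromic NRF-1 motif in Etfdh, and CCGGAAGT, an ETS motif, and TGACGT, the core of a cyclic AMP response element, in Mief1, each in either orientation.
Etfdh: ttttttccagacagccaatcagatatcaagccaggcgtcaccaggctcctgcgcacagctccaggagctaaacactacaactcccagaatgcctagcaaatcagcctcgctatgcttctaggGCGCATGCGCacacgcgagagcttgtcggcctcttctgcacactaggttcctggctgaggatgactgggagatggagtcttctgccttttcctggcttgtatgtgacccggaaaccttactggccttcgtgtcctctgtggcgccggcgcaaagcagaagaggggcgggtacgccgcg
Mief1: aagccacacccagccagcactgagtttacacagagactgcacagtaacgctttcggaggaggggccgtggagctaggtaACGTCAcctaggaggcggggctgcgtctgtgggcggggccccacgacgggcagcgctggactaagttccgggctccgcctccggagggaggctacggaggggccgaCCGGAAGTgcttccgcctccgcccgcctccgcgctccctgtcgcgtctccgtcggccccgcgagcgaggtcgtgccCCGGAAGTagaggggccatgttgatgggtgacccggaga
Of the 33 members, 26 had a promoter in the table. The NRF-1 motif, searched as its palindrome, was in 1 of them (3.85%, against 2.47% of 7882 tested genes with a promoter), and CCGGAAGT in 4 (15.4%, against 9.92%). A match says only that these letters are in the window.

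5 members belong to other metabolic or assembly steps. Pex5, the receptor that imports enzymes into peroxisomes, where very long fatty acids are shortened, read 8.40, 9.20 and 9.11 at P15, after 7.41, 5.24 and 6.23 at P7 and 4.75, 7.20 and 7.37 at P10, and before 8.08, 8.30 and 7.11 at P25 and from 6.82 to 7.38 at P40. Its lowest P15 array lay just above the highest P25 array and well above the rest. Cdo1, the cysteine dioxygenase on the way to taurine, read 6.56, 7.20 and 7.60 at P15, after 5.80, 3.90 and 3.95 at P7 and 5.74, 5.52 and 5.86 at P10, and before 5.13, 4.71 and 3.90 at P25 and 4.12, 6.02 and 4.45 at P40. Both ends of its course were at or near background. Ciapin1, of iron-sulphur cluster assembly, had the highest P15 mean of the 5, 10.90 ± 0.29, against 9.03 ± 0.30 at P7 and 9.73 ± 0.20 at P40. Sult2b1, a sterol sulfotransferase, averaged 6.74 ± 0.22 at P10, 7.13 ± 0.78 at P15 and 4.73 ± 1.40 at P25. Smpdl3a, a phosphodiesterase of the acid sphingomyelinase family, averaged 7.72 ± 0.44 at P15 and 7.35 ± 1.00 at P25, with overlapping arrays.

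5 members act in the nucleus, and 2 of them act on modified or damaged cytosine. Tet1, which oxidizes 5-methylcytosine, read 8.61, 9.39 and 9.66 at P15, after 8.20, 5.08 and 6.12 at P7 and 5.03, 7.23 and 9.10 at P10, and before 8.19, 8.15 and 4.67 at P25 and 4.04, 4.90 and 5.71 at P40. Its P10 and P25 arrays each ran from about the background limit to over 8, so the means at those ages rest on widely spread arrays. Ung, the glycosylase that removes uracil from DNA, was tighter, at 10.16, 10.15 and 9.86 at P15, after 8.43, 8.27 and 8.08 at P7 and 9.64, 8.95 and 9.65 at P10, and before 9.03, 8.97 and 9.66 at P25 and 7.97, 8.19 and 7.61 at P40. Its P15 mean was 3.46 times the P7 and 4.37 times the P40 level, and its P10 and P25 arrays also lay above all P7 and P40 arrays. Prdm8, a transcriptional regulator with a PR domain, read 9.81, 9.62 and 9.03 at P15, after 4.15, 5.62 and 5.14 at P7 and 6.17, 5.72 and 8.10 at P10, and before 8.42, 8.30 and 6.74 at P25 and 6.43, 7.95 and 6.93 at P40. It kept 2.13 of its 4.52 gain over P7 at P40. Scmh1, a polycomb protein, averaged 8.13 ± 0.28 at P15, and Uxt, a prefoldin-like chaperone and transcription cofactor, 7.24 ± 0.33.

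4 members are secreted or sit at the cell surface facing the matrix. Cemip, which binds hyaluronan and takes part in its breakdown, read 12.13, 12.18 and 12.05 at P15, after 9.08, 8.29 and 7.81 at P7 and 9.66, 10.54 and 11.29 at P10, and before 10.88, 10.62 and 10.04 at P25 and 9.91, 9.95 and 9.78 at P40. Its P15 mean was 13.2 times the P7 and 4.73 times the P40 level, with a spread of 0.06 (SD) between the P15 arrays. Hyaluronan is the backbone of the perineuronal nets that form around parvalbumin cells. Adamts8, a secreted metalloprotease of a family that cuts proteoglycans, read 8.20, 7.61 and 8.31 at P15, after 5.25, 5.91 and 5.77 at P7 and 6.85, 7.19 and 6.90 at P10, and before 6.02, 7.01 and 7.24 at P25 and 5.99, 5.88 and 6.25 at P40. Its P15 arrays lay above every array of the other ages. Lgals1, the secreted lectin galectin-1, had the highest P15 mean of the members. It read 13.05, 14.47 and 13.76 at P15, after 12.58, 12.76 and 12.69 at P7 and 13.49, 13.39 and 13.59 at P10. Later it read 12.64, 11.99 and 11.85 at P25 and 12.02, 12.09 and 12.24 at P40. All its P10 arrays lay above its lowest P15 array, replicate 1, so its high phase covered P10 and P15 together. Antxr2, a receptor that binds matrix proteins, averaged 7.36 ± 0.78 at P15, against 4.69 ± 1.71 at P7.

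**Figure D2:**
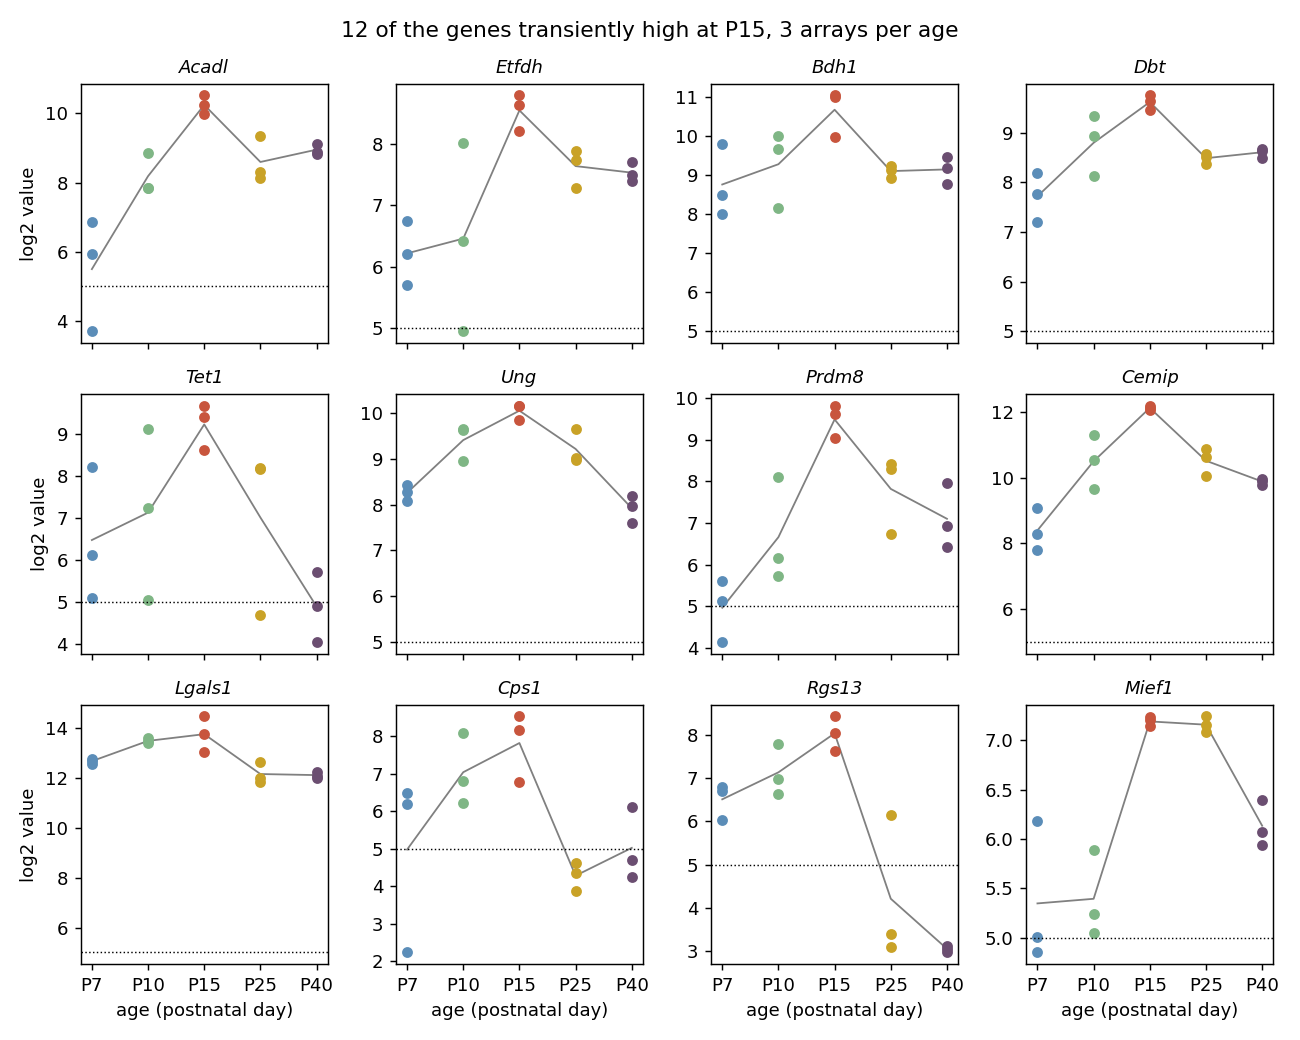
Log2 values of 12 members by age (days after birth, spaced evenly), with a point for each array and a line through the means of 3 arrays. The dotted line marks the background limit of 5. Mief1 has its P15 level at P25, Rgs13 lies under 5 on all P40 arrays, and the Cemip and Ung means at P25 lie between those of P15 and P40.

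7 members are membrane or signalling proteins. Mal2, a proteolipid of vesicle transport, read 10.68, 10.75 and 10.55 at P15, after 8.75, 5.22 and 5.48 at P7 and 5.52, 7.63 and 9.64 at P10, and before 9.85, 9.33 and 8.86 at P25 and 8.43, 9.48 and 9.77 at P40. It was spread over several units at P7 and P10 and tight at P15. Rgs13, which speeds the shut-off of G proteins, read 8.42, 7.63 and 8.04 at P15, after 6.70, 6.79 and 6.03 at P7 and 7.78, 6.63 and 6.98 at P10, and before 3.39, 6.14 and 3.10 at P25 and 3.06, 2.97 and 3.13 at P40. It was at background on every P40 array, the only member to be so at that age. Trp53inp2, a factor of autophagosome formation, read 10.03, 10.52 and 10.64 at P15, after 8.41, 8.41 and 8.48 at P7 and 8.15, 8.94 and 9.51 at P10, and before 9.55, 9.60 and 9.29 at P25 and 8.87, 8.65 and 9.04 at P40. No array of another age reached its P15 arrays. Tmem176b, a membrane protein best known from immune cells, averaged 9.47 ± 0.60 at P10 and 9.79 ± 0.50 at P15, and Tmem117 averaged 7.21 ± 1.05 and 8.69 ± 0.20. Asb1, a substrate adaptor of ubiquitin ligases, averaged 9.11 ± 0.45 at P15 and 8.63 ± 0.41 at P25, and Txlng, a taxilin, 8.58 ± 0.06 and 8.05 ± 0.55.

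The promoter of Trp53inp2, at chr2:155381606-155381905 (plus strand, GRCm38.p6), is shown because it is the only member promoter with the whole palindromic cyclic AMP response element TGACGTCA, in capitals.
Trp53inp2: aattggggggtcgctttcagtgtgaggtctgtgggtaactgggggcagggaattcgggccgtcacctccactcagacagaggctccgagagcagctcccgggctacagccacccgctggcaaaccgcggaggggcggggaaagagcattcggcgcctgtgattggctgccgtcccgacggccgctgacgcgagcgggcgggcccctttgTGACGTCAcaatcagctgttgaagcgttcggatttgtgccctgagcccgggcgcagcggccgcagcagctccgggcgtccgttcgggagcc
The 26 members had 37 windows, since some genes have several starts, and a gene counts as holding a motif if any of its windows does. The shorter TGACGT, searched on both strands and held within the palindrome, was held by 7 of the 26 members (26.9%): Asb1, Mief1, Nars2, Pex5, Sult2b1, Trp53inp2 and Uxt. Of the tested genes with a promoter, 14.5% held it. Its share of 7.51% of all 32851 promoters of the table counts each window singly, so it is not comparable with these shares by gene. CAGCTG was in 8 (30.8%, against 17.4% of tested genes), GGGCGG in 21 (80.8%, against 71.5%), CCAAT in 6 (23.1%, against 43.2%), CACGTG in 1 (3.85%, against 12.3%) and TATAAA in 3 (11.5%, against 8.16%). The median GC content of the member windows was 67.0%, against 63.0% for tested genes, and GC-rich motifs are more frequent in GC-rich windows. TGANTCA was in 1 member promoter, and GCGTGGGCG and TCAAGGTCA were in none, which says only that those letters are not in these windows.

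The last 4 members, Rwdd2a, Ccdc102a, 8430429K09Rik and Gm9866, are named without a role. Rwdd2a had the highest P15 mean of them, 10.47 ± 0.10, after 7.95 ± 0.08 at P7 and 10.02 ± 0.37 at P10, and before 9.79 ± 0.29 at P25 and 9.34 ± 0.42 at P40. Ccdc102a averaged 7.66 ± 0.28 at P15, 8430429K09Rik 7.43 ± 0.10 and Gm9866 8.54 ± 0.41.

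By their means, the members differed in when they gained and lost their P15 level, which is a description and was not tested. In some, the arrays of 1 age spread over most of the step from P7 to P15, as in Mal2 at P10, from 5.52 to 9.64. Others lay close to the 50% used below, as Txlng with 51.1% at P10. The side of such members is not settled by 3 arrays per age. The P10 mean had covered a median of 47.5% of the step from P7 to P15, from 2.66% in Mief1 to 89.5% in Tmem176b. The P25 mean kept a median of 35.9% of the height above P40, from -47.6% in Sult2b1, which was lower at P25 than at P40, to 96.7% in Mief1. In 12 members at least 50% of the gain was present at P10 and under 50% was left at P25, among them Cps1, Sult2b1, Tmem176b, Lgals1, Acadl, Cemip, Adamts8, Dbt and Rwdd2a. In 3 members, Mief1, Uxt and Asb1, the order was turned, with less at P10 and at least 50% left at P25. A further 3, Ung, Smpdl3a and Gm9866, were above 50% at both ages, and 15, among them Etfdh, Pex5, Bdh1, Mal2, Prdm8 and Trp53inp2, were below it at both. In 7 members the P25 mean was below the P40 mean.

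**Figure D3:**
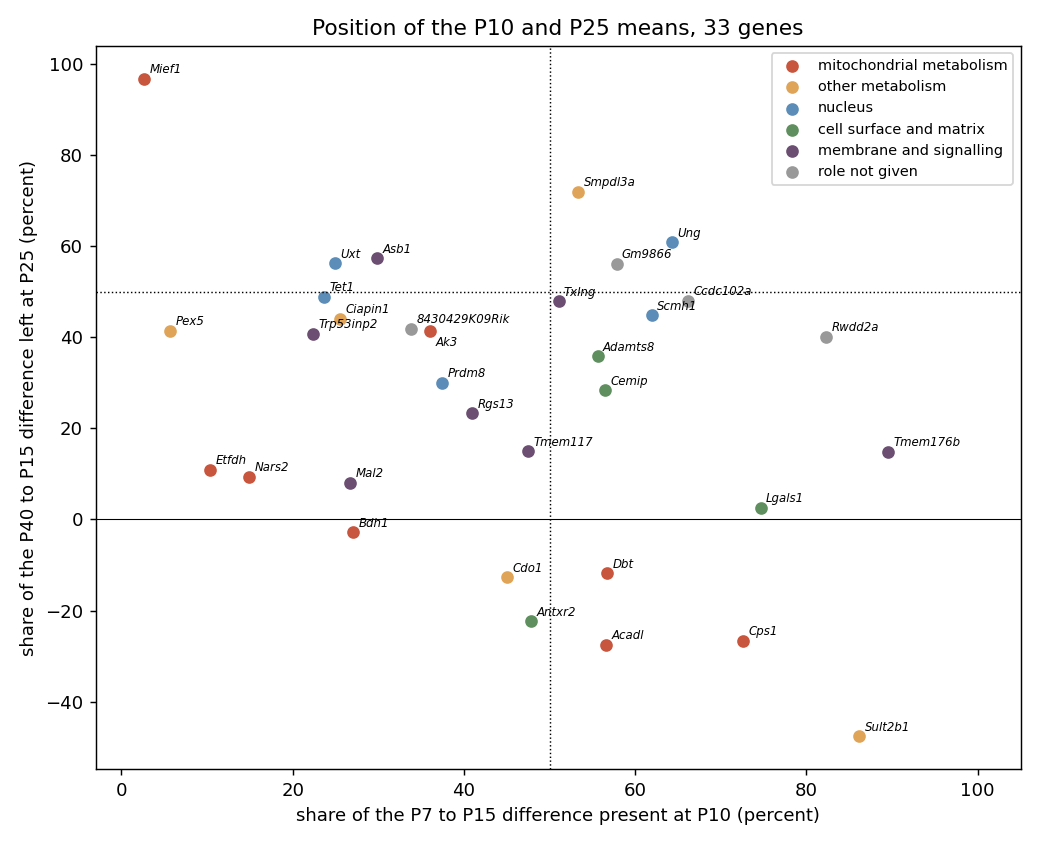
Percent of the step from P7 to P15 present at P10 (x axis) against percent of the height of P15 over P40 left at P25 (y axis), with a point for each of the 33 members, coloured by role; dotted lines mark 50%. Mief1 lies alone at the upper left, at 2.66% and 96.7%, and Tmem176b at the far right, at 89.5%.

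All P15 arrays lay above all P10 arrays in 22 members, a relation that 20.9% of the tested genes showed, and above all P25 arrays in 26, shown by 11.9%. Both held in 17 members, shown by 2.55%. The members were chosen for high P15 arrays, so these counts describe them and nothing is read from the distance to all genes. The members without overlap on either side were spread over the roles, 4 of the 8 mitochondrial genes, 3 of the 5 other metabolic genes, 2 of 5 in the nucleus, 2 of 4 at the cell surface, 3 of 7 membrane and signalling genes and 3 of the 4 without a role.

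The question that the rule left to be tested was whether the members stood higher before or after P15. Between P10 and P25, 5 of the 33 (15.2%) changed by limma at a Benjamini-Hochberg adjusted p under 0.05, where 27.8% of all tested genes did. The rule leaves out genes that climb or fall all the way from P7 to P40. It can thus shape the members' share of calls and their median difference, and neither is read as a trait of the members. The members' share was the lower under 26 of 27 other settings, but with the mean of all probe sets of a gene it was 28.1% (9 of 32) against 27.9%. Many of these settings leave the differences unchanged and alter only the p or the genes tested. With only the P10 and P25 arrays in the fit, 4 members (12.1%) were called, against 21.5% of all genes. Mief1 was the member that rose, where 18.7% of all genes did, and 4 members (12.1%) fell, where 9.1% did. The median difference, P25 minus P10, was -0.05 over the members, with 16 above 0 and 17 below, against 0.24 over all tested genes. Of the calls over all genes, 1810 were higher and 879 lower at P25, a split that turned to 1108 and 1303 with each array set to an equal median; that scaling moved the median of all genes to -0.04 and that of the members to -0.32, with 12 members above 0.

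Mief1 rose from 5.39 ± 0.44 at P10 to 7.16 ± 0.08 at P25 (log2 difference 1.76, SE 0.36, limma adjusted p = 0.00245), with every P25 array above every P10 array. Lgals1 fell by 1.33 (SE 0.27, adjusted p = 0.00268), from 13.49 ± 0.10 to 12.16 ± 0.42, again without overlap. Rgs13 fell by 2.92 (SE 0.61, adjusted p = 0.00304), from 7.13 ± 0.59 to 4.21 ± 1.67, a mean under the limit of 5. Those 3 calls held under each of the 27 other settings tried, many of which can move only the p and not the difference. The number of members called was 3 without P10 replicate 1 (9.09%, against 19.9% of all genes) or without P25 replicate 3 (against 23.7%), and 8 without P10 replicate 3 (24.2%, against 31.5%).

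Sult2b1 fell by 2.01 (SE 0.64, limma adjusted p = 0.0305) and Cps1 by 2.75 (SE 0.91, adjusted p = 0.0347), both to P25 means under 5, at 4.73 ± 1.40 and 4.28 ± 0.38. These 2 calls were less steady. Without P25 replicate 3, the lowest array of Sult2b1 at 3.12, that gene's difference was -1.20 (adjusted p = 0.136), and leaving out any P10 array also ended the call. With only the P10 and P25 arrays in the fit, Sult2b1 had an adjusted p of 0.0616 in limma. Cps1 kept its call under 20 of the 27 settings and lost it when any P25 array, P10 replicate 1 or P10 replicate 3 was left out.

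For the other 28 members the difference between P10 and P25 did not pass the test, and with SEs from 0.26 to 1.05 over the 33 it was often not measured closely. Among them Cemip, whose direction turned with the scaling, stood at 10.50 ± 0.82 and 10.51 ± 0.43, Ung at 9.41 ± 0.40 and 9.22 ± 0.38, and Adamts8 at 6.98 ± 0.18 and 6.76 ± 0.65. Pex5 differed by 1.39, Etfdh by 1.18 and Ciapin1 by 0.74, higher at P25, with unadjusted p under 0.05 that did not hold after adjustment. These values hung on single P10 arrays. Without P10 replicate 1 they were 0.54, 0.43 and 0.36, and without P10 replicate 3 they were 1.85, 1.96 and 1.01, where Etfdh (limma adjusted p = 0.00457) and Ciapin1 (0.0219) passed the test and Pex5 (0.0513) did not.

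**Figure D4:**
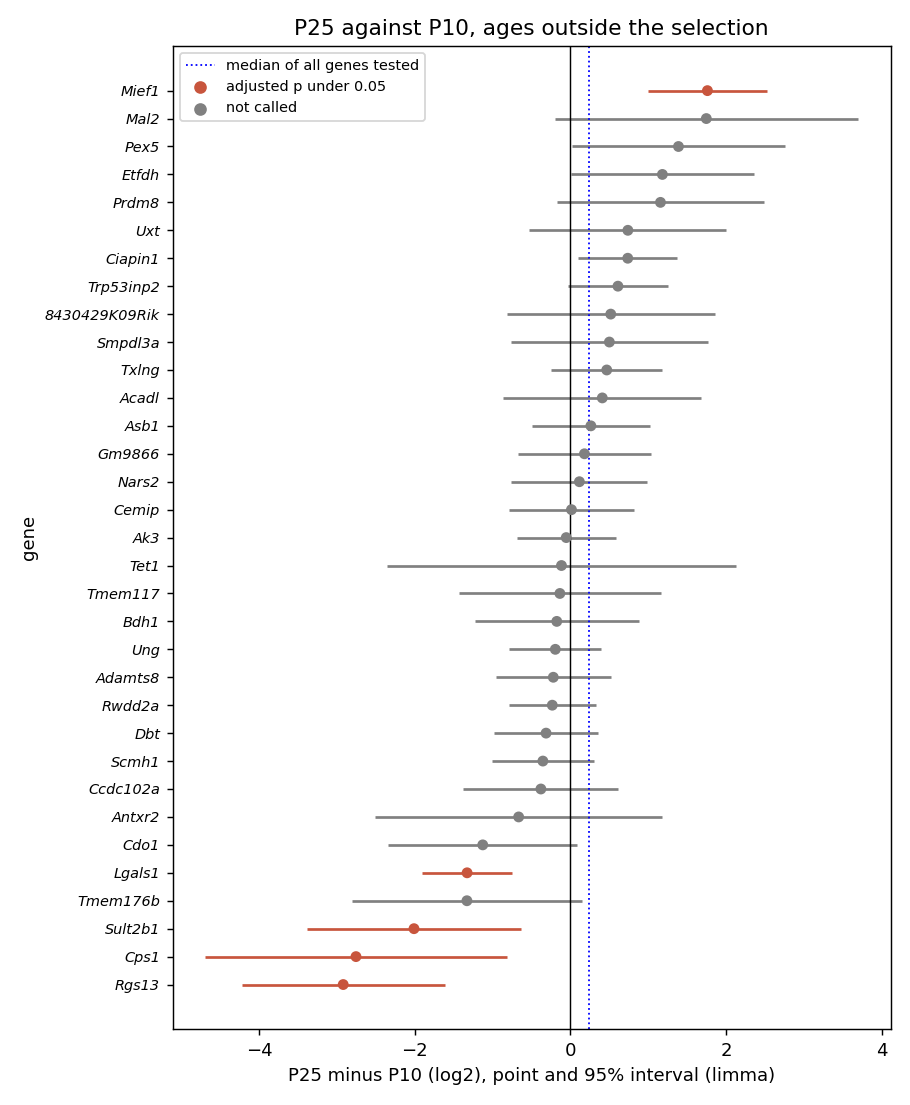
Log2 difference P25 minus P10 for each of the 33 members (rows) with its 95% confidence interval from limma. Red points have a limma adjusted p under 0.05, and grey points do not. Mief1 lies to the right at 1.76, and Lgals1, Rgs13, Sult2b1 and Cps1 lie to the left, at -1.33, -2.92, -2.01 and -2.75.

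Other genes of the same pathways were read from lists chosen after the members had been seen, so they are a description, and members are left out of the counts. Of 4 such tested genes of ketone body use, 2 (Oxct1 and Slc16a1) had their highest mean at P15, where 17.1% of all tested genes did. None rose and 2 fell between P10 and P25, where 18.7% of all tested genes rose and 9.1% fell. Oxct1, which activates acetoacetate, was high at every age, from 13.67 to 14.82 over the 15 arrays. Acat1, which splits acetoacetyl-CoA, fell by 1.20 between P10 and P25 (limma adjusted p = 3e-05), and Slc16a7, a monocarboxylate transporter, fell by 1.73 (adjusted p = 0.0275). At P7 these genes read 13.72 to 13.87 and 7.04 to 8.22, above their P25 arrays.

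Of 15 tested genes of fatty acid oxidation other than members, 8 had their highest mean at P15. Between P10 and P25, 3 rose, Hadhb by 1.14 (limma adjusted p = 0.000542), Acadvl by 0.96 and Etfb by 1.37, and 2 fell, Cpt1a by 2.20 (adjusted p = 0.00467) and Acaa2 by 2.47. With 18.7% of all tested genes rising and 9.1% falling, these counts are not read as a trait of the pathway. Cpt1a, the gate for fatty acids into mitochondria, and Acaa2, the last step of the cycle, thus went down over the interval in which Hadhb, of the trifunctional protein, went up. Acadm, the medium-chain partner of Acadl, read 9.44, 10.14 and 10.20 at P15 and between 7.06 and 9.26 on the other 12 arrays, so its P15 arrays too lay above all others. Etfa, a subunit of the protein that feeds Etfdh, read 11.06, 11.29 and 11.58 at P15 and 10.45 to 11.31 at P40, where it had not come down as far.

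Of 13 tested genes of branched-chain amino acid breakdown other than Dbt, 8 had their highest mean at P15, 3 rose between P10 and P25 (Bcat1 by 1.82, Bckdha by 1.10 and Acadsb by 0.92) and none fell. The shares over all tested genes, 18.7% rising and 9.1% falling, also stand beside the counts of this paragraph. Bckdha belongs to the complex of Dbt but stood at 7.61 to 8.72 at P40, against 7.88 to 8.86 at P15. Of 11 tested genes of cytosine demethylation and base excision other than Tet1 and Ung, 1 (Gadd45g) had its highest mean at P15, 1 rose (Gadd45a, by 1.06) and 1 fell (Lig3, by 1.79). Of the relatives of Tet1, Tet2 read 7.08 to 8.41 at P15 and 8.70 to 9.61 at P7, and Tet3 was at or under 5.32 on every array.

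In the broader families into which the tested genes had been sorted, 6 members fell into at least 1 of 15 and 27 into none, and no family held 3 members. None of 36 immediate early genes and none of 446 genes listed as transcription factors, a list without Prdm8, was a member. Other families held none as well, among them the protein kinases, with 208 tested genes, and the solute carriers, with 197. Members were only 33 of the 9663 tested genes, so few or none would fall into families of these sizes by number alone. The absences are thus not read as a trait of the members.

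Some members were read by more than a single probe set, which gives the same RNA a second reading. Of 26 other probe sets, in 16 members, 9 exceeded 5 at some age, and 6 of those 9 had a P15 mean above the P7 and P40 means. The rule itself was met by 3, of Bdh1, Ciapin1 and Lgals1. The other probe set of Bdh1 averaged 10.06 at P15, after 8.62 at P7 and 9.56 at P10, and before 6.73 at P25 and 4.15 at P40, a deeper loss than the probe set used. The other probe set of Tet1 averaged 6.84, 8.17, 5.83, 3.90 and 3.99 at the same ages, highest at P10 and not at P15, so the P15 level of Tet1 depends on the probe set. That of Txlng averaged 6.08 at P15, below its 6.89 at P7 and 6.99 at P40, and a further probe set of Ciapin1 averaged 5.41 at P15, below its 6.35 at P7.

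**Figure D5:**
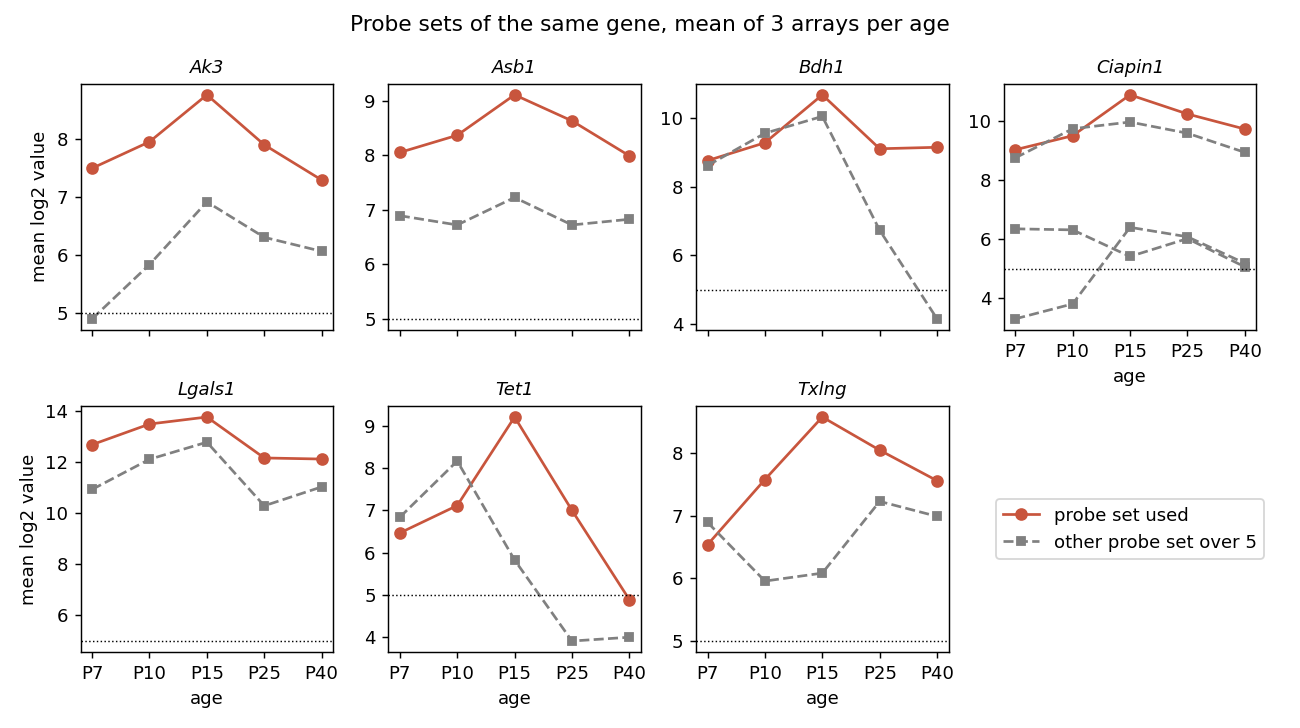
Mean log2 value by age (days after birth, spaced evenly) of the probe set used and of the other probe sets over 5, for the 7 members that have such; the dotted line marks 5. In Bdh1, Ciapin1 and Lgals1 another probe set also meets the rule, though a further one of Ciapin1 lies lower at P15 than at P7; in Tet1 the other is highest at P10, at 8.17.

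Markers of glia and excitatory neurons were not highest at P15. The 10 astrocyte markers, 8 of them over 5 on some array, averaged 3.45 to 3.94 on the P15 arrays, under the limit of 5 and below the 4.20 to 5.53 of P10 and the 4.35 to 6.11 of P25. The oligodendrocyte markers averaged 3.92 to 4.43 at P15 and 5.11 to 5.59 at P25, with 4 of 10 over 5 on some array. Of single markers, Slc1a2, a glutamate transporter of astrocytes, averaged 8.44 at P10, 4.07 at P15 and 6.86 at P25, and Mbp, a myelin protein, 7.84, 8.22 and 11.21. Gfap, Mog and Slc17a7, of the astrocyte, oligodendrocyte and excitatory neuron lists, had means under 4 at every age. Other genes of the same lists had means over 5 at every age. At P10, P15 and P25, Slc4a4 of the astrocyte list averaged 9.38, 8.24 and 8.45, and Cnp of the oligodendrocyte list 9.91, 9.13 and 9.79. Of the excitatory neuron list, Cux2 averaged 10.60, 10.76 and 10.90, and Camk2a 6.45, 5.84 and 8.20. Excitatory neuron markers averaged 4.03 to 4.23 at P15 and microglial markers 2.76 to 3.02, with 4 of 10 and 2 of 10 over 5 on some array. The 8 markers of other interneuron classes averaged 7.74 to 8.63 at P15, 7.10 to 8.03 at P7, 7.04 to 7.85 at P10, 7.68 to 8.17 at P25 and 6.41 to 8.11 at P40. They thus reached their highest value at P15, and their part in the P15 levels was not tested. None of the 33 genes is on any of the 10 marker lists. The markers of parvalbumin interneurons averaged 12.02 to 12.09 at P15, 11.04 to 11.41 at P10 and 11.97 to 12.33 at P25. In picked cells, fewer cells of a type and less RNA per cell cannot be told apart. At P10 and P25, where the test was made, the astrocyte markers were thus higher and more spread than at P15, and their part in the P25 minus P10 differences was not tested.

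The count of 33 follows from where the limits were set. Just inside lay Dbt with a peak of 1.01, Etfdh with 1.02 and Txlng with 1.02, and just outside lay Myadm with 0.98, Ccdc58 with 0.98 and Rgs11 with 0.96, which met every other condition. The same rule set at P10 found 19 genes and at P25 27, and turned to genes low at P15 it found 20.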

How the data were processed

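The deposited table holds log2 values, 1 per probe set and array, from Affymetrix mouse genome arrays; the authors used GCRMA, whose version is not given in the sources used here, for background correction, normalization and summary, per the submitters' processing notes. Values were used as deposited. Of 45101 probe sets, 34945 had 1 gene, 932 several, 9160 none and 64 were controls; where a gene had several single-gene probe sets, the brightest by the mean over 15 arrays stood for it. Arrays have no depth, so their number, 3 per age, limits the precision.

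P25 minus P10 was tested with limma 3.58.1 in R 4.3.3: a means model over 5 ages and all 15 arrays, a trend in the prior variance, 10 residual degrees of freedom, two-sided, with Benjamini-Hochberg adjustment over 9663 genes; the script was tested on simulated data. SE is limma's moderated standard error and ± the SD over 3 arrays. A fold is 2 to the power of a log2 difference. Figures used Python 3.11.15, pandas 2.3.3 and matplotlib 3.10.9. Named members were the 10 largest peaks, the 5 highest at P15, those called and the 3 smallest peaks, with the 3 genes just under the threshold; other genes were chosen with their values in view. The members and lists were chosen with earlier results of these data known, and the role groups, the pathway lists and the motif TCAAGGTCA after the members were seen. Promoters are from RefSeq.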

Additional observations from a re-analysis of the deposited data

How the results depend on the processing

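Membership was recomputed under 24 other settings and P25 minus P10 under 27. The count of 33 genes became 102 with a difference of 0.58 in place of 1, 15 with 1.5, 72 where arrays may overlap and 92 from P15 replicate 1 alone, which kept 23 of the 33. Leaving out 1 array gave 33 to 113 genes, with 59 without P7 replicate 1, 113 without P15 replicate 1 and 51 without P40 replicate 2; 21 of the 33 were kept whichever array was left out, and 18 under quantile normalization, equal array medians and the mean of probe sets together. Over all genes, the calls for P25 minus P10 ran from 1734 (without P25 replicate 2) to 3040 with 1 array left out. Among members the calls numbered 3 with no filter (9.09%, against 2177 of 18193 genes), 9 with the mean of probe sets (28.1% against 27.9%), and 3 (without P10 replicate 1 or P25 replicate 3) to 8 (without P10 replicate 3) with 1 array left out. The replicate numbers of P10 and P25 did not pair the arrays (r = -0.19, 0.07 and -0.40 for the same number); with a replicate block, 2399 genes and 4 members were called, and Cps1, at -2.75, was not (adjusted p = 0.0526). Of 538 values of 20 named members, 493 kept direction and side of the threshold, 14 lost and 13 gained a call, and 18 changed sign, none of them in a called member. Many of these values could not change direction. Leaving out P7, P15 or P40 arrays, or changing only the filter, the prior variance or the replicate block, moves the p and not the difference. Cemip (0.01) read -0.16 with quantile normalization, -0.25 with equal medians, -0.27 with the mean of probe sets, -0.32 with cells picked and -0.081 with beta-actin as a covariate, and -0.40 to 0.41 with 1 array left out. With array weights, Dbt read 0.030, Tet1 0.23 and Tmem117 0.16. With 1 array left out, Adamts8 ran from -0.46 to 0.15, Bdh1 from -0.73 to 0.19, Tet1 from -1.16 to 1.05 and Tmem117 from -0.54 to 0.46. The mean of probe sets moved Tet1 from -0.1141 to -1.4164 (limma adjusted p = 0.00115) and Bdh1 from -0.1744 to -1.5022 (adjusted p = 0.0156). Both thus gained a call, lower at P25. Txlng (0.87, adjusted p = 0.0389) and Ciapin1 (0.6417, adjusted p = 0.0394) gained a call under the same setting, higher at P25. The cause of these changes was not tested. With 3 arrays per age, levels near the limit of 5 are the least certain.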

Other observations

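Among the probe sets that no gene is named for, 2 met the rule. The dimmer averaged 8.59 ± 0.68 (SD, n = 3) at P15, after 7.24 ± 0.82 at P7 and 8.36 ± 0.93 at P10, and before 7.92 ± 0.72 at P25 and 5.40 ± 1.47 at P40. The brighter averaged 9.19 ± 0.69 at P15, 7.28 ± 1.25 at P7 and 7.86 ± 0.05 at P40.

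Of the 3 genes that met the numbers and were left out by name, Kcnc4, a potassium channel subunit of fast-spiking cells, averaged 8.53 at P7, 10.08 at P15 and 6.22 at P40. Pcdh11x, a protocadherin, averaged 9.29, 10.60 and 8.69, and Rps4l, a ribosomal protein gene, 7.90, 9.71 and 8.49. These values chose the genes and were not tested.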
